A study of Homo sapiens with 6 samples.

Results

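Ribosome biogenesis genes were followed in 786-O, a human line from a clear cell carcinoma of the kidney that lacks functional VHL. The set holds 56 genes, taken by symbol from a list chosen with earlier results of these data known. All 56 were present among the 19669 genes analysed. Messenger RNA was measured by RNA-seq, in FPKM (fragments per length of transcript and per size of library), and ribosome-protected fragments, or footprints, by Ribo-seq, in TPM (footprints scaled to length and to a fixed library total). The 3 labels were MT, WT and EV, with 1 RNA-seq and 1 Ribo-seq library each, 6 libraries in all. Cells for Ribo-seq received cycloheximide (100 µg/ml), which is not listed for the RNA-seq libraries. EV cells carried an empty vector. For MT the series title gives PHYHD1 with 107 to 130 deleted, and the sample labels give overexpression of PHYHD1. For WT the title gives full-length PHYHD1, whereas the design text calls the group untreated. Neither the promoter of the vector nor the number of clones is stated, and whether the 3 dishes per condition were pooled into each library is not stated. PHYHD1 itself stood at 109.5 FPKM in MT, 118 FPKM in WT and 0.092 FPKM in EV, with footprints at 905 TPM in MT, 222 TPM in WT and 0 TPM in EV, so PHYHD1 mRNA was high in both MT and WT, which goes against the description of WT as untreated. MT and WT below are the deposited labels. PAX8, a transcription factor of the renal lineage used here to check the cell line, ranged from 75.9 to 94.0 FPKM.

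Ribosomes are built in the nucleolus, where RNA polymerase I transcribes the long precursor of the ribosomal RNAs. Small nucleolar ribonucleoproteins (snoRNPs) modify that precursor, a large assembly called the small subunit processome cuts and folds its first part, and separate sets of helicases, GTPases and scaffold proteins mature the small and large subunits until they leave for the cytoplasm. Prominent nucleoli are among the features by which pathologists grade clear cell renal carcinoma. The genes were divided by role into nucleolar scaffold and multifunctional proteins (5 genes), RNA polymerase I transcription (4), box C/D snoRNPs (4), box H/ACA snoRNPs (4), the small subunit processome (18), late maturation of the small subunit (6) and assembly of the large subunit (15).

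With 1 library per label and assay there was no replicate and no test, and each comparison below is between libraries. Differences are in log2(value + 1), the label named first minus the label named second, which understates changes of low values. Genes were compared where 1 of the libraries involved reached 1 unit, a condition that all 56 met in each of the 9 comparisons. Differences were counted at 1.2-fold and at 2-fold after adding 1, and each count is set beside the share of all genes tested that passed the same size. Read totals are unknown, so no counting interval could be given, and values are relative within a library, so a change in RNA per cell cannot be seen. As a yardstick, genes outside the set at 10 to 100 units had a robust SD across genes of 0.17 (mRNA) and 0.30 (footprints) on the log2 scale in WT over EV, a spread that mixes error with real differences.

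The E-box CACGTG, the sequence bound by MYC and related factors, was common in the promoters of the set, so stretches that carry it are printed here. RefSeq promoters (GRCh38.p14, 250 bases before to 50 bases after an annotated start) were matched for 48 of the 56 genes, the others being BOP1, DDX18, DDX52, MPHOSPH10, NOLC1, NOP58, RRP12 and RRS1. CACGTG, searched on both strands, where it reads the same, occurred in 24 of these 48 genes. It occurred in 24 of 103 other genes of the pathway (23.3%), in 12.9% of the 9181 genes at 1 FPKM or more with a promoter in the table and in 8.77% of all 27305 genes there. In 10 of the 24 it lay before a start, and in the other 14 it was found at or after the start. The first 4 stretches below, each 80 bases long and ahead of the outermost start, come from genes whose mRNA was higher in WT than in EV, and NOP10 is shown as a gene with the motif whose mRNA was not. The letters in capitals mark the E-box.
NAT10, chr11:34105549-34105628, plus strand: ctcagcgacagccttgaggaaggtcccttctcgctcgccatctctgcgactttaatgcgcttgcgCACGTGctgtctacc
UTP4, chr16:69132569-69132648, plus strand: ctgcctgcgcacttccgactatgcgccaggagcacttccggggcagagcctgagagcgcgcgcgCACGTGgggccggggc
UTP18, chr17:51260420-51260499, plus strand: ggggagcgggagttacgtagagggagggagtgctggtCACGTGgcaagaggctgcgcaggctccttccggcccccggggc
UTP20, chr12:101280025-101280104, plus strand: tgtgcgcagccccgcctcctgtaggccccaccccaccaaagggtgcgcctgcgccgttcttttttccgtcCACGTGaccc
NOP10, chr15:34343137-34343216, minus strand: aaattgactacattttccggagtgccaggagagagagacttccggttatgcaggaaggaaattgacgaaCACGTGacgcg

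The motif began 15 bases before the start in NAT10, 16 in UTP4, 89 in UTP18, 10 in UTP20 and 11 in NOP10. CCGGAAG, a core of sites for ETS family factors, was present in 18 of the 48 promoters (37.5%), against 45.6% of the other pathway genes and 24.2% of genes at 1 FPKM or more. GGGCGG, the GC box, was present in 35 (72.9%), against 61.2% of the other pathway genes and 78.7% of genes at 1 FPKM or more. TATAAA was present in 2 (4.17%), against 5.83% and 7.79% in the same lists. These 3 were also searched on both strands. No motif contains another, although neighbouring matches can share bases at their ends. A match describes the letters in the window and does not show that a factor binds there.

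All 56 genes were measured in every library. Their median was 26.5 FPKM in MT, 29.6 FPKM in WT and 23.7 FPKM in EV, and 37.8 TPM in MT, 39.3 TPM in WT and 39.5 TPM in EV. At least 44 of the 56 stood above the median of genes at 1 unit or more in each library. Levels ran from 5.34 FPKM for UTP15 in EV to 1160.5 FPKM for NPM1 in WT, and from 2.10 TPM for UTP20 in EV to 2428 TPM for NPM1 in WT. The plot of levels by library shows all values.

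**Figure D1:**
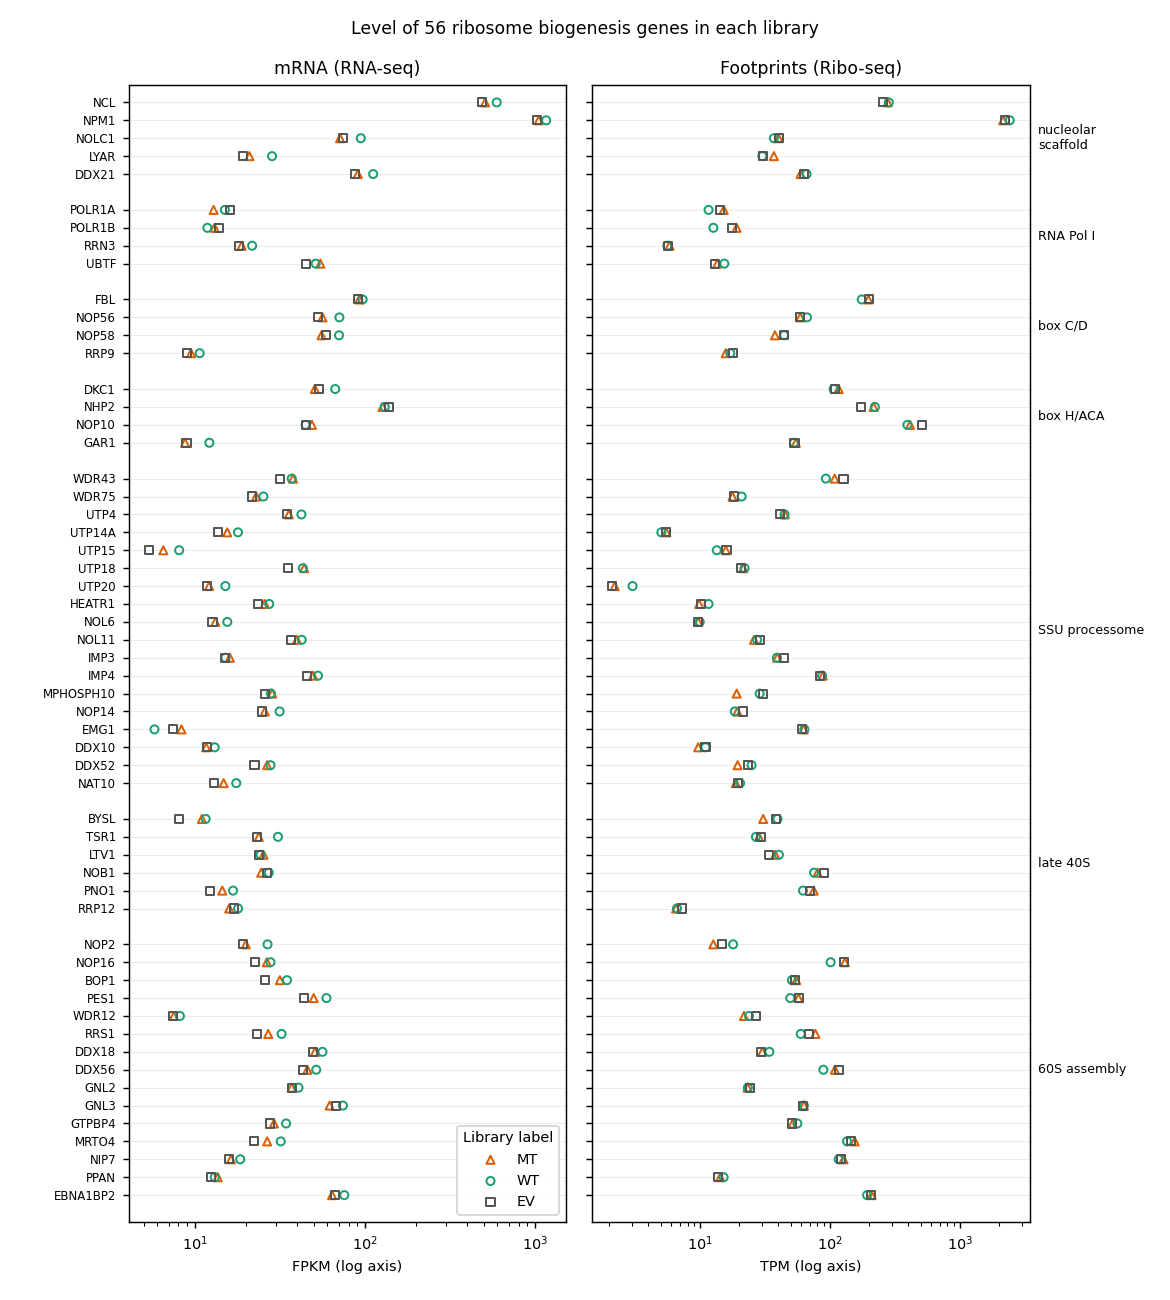
Level of each of the 56 genes in the MT (triangles), WT (circles) and EV (squares) libraries, with mRNA in FPKM on the left and footprints in TPM on the right, both on log axes. Each point is 1 library. In the mRNA panel the WT circle is the rightmost point for 44 of the 56 genes (background 35.5%), and in the footprint panel for 21 (background 38.4%).

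Messenger RNA of the set was higher in WT than in EV in most roles. The exceptions were RNA polymerase I and box H/ACA genes, where 2 of 4 lay above 0 in each role. The median log2 difference of the set was 0.25, against -0.0056 over all genes tested. In the set 51 of 56 genes lay above 0, where 48.9% of all genes did. At 1.2-fold, 26 of 56 were higher in WT (46.4%, against 9.27% of all genes) and 1 was lower (1.79%, against 11.8%). No gene of the set reached 2-fold, which 0.499% of all genes did in either direction. The summed mRNA of the set was 3771 FPKM in WT (0.820% of the library's sum) and 3236 FPKM in EV (0.689%). Without NPM1, the most abundant gene, it was 0.568% in WT and 0.470% in EV.

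In the library labelled MT the same mRNAs were closer to EV. The median difference was 0.073 in MT over EV, against -0.0055 over all genes, with 43 of 56 above 0 and a background of 48.7%. At 1.2-fold 4 were higher in MT (7.14%, against 7.63% of all genes) and 1 was lower (1.79%, against 9.8%). The share at 1.2-fold higher was therefore near the background. BYSL, UTP18, UBTF and BOP1 were the 4 higher in MT, and POLR1A was the lower one. The 2-fold size was reached by 0.29% of all genes and by none of the set. The set summed to 3344 FPKM in MT (0.723% of the library's sum). Both comparisons use the same EV library.

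Set directly against WT, MT held less of these mRNAs, in a comparison that reuses the MT and WT libraries of those above. The median of MT over WT was -0.17, against -0.0034 over all genes, and 10 of 56 genes lay above 0, where 49.0% of all genes did. In MT 12 genes were lower by 1.2-fold (21.4%, against 9.97%) and 1, EMG1, was higher (1.79%, against 10.6%). None reached 2-fold, as 0.508% of all genes did. Over the 3 RNA-seq libraries, WT was the highest for 44 of 56 genes (background 35.5%) and EV the lowest for 41 (background 31.3%).

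Footprints of the set did not stand higher in WT. The median difference of WT over EV was -0.024, against 0.026 over all genes, with 24 of 56 above 0 and a background of 53.4%. At 1.2-fold 3 were higher in WT (5.36%, against 22.7%) and 6 lower (10.7%, against 19.5%), so fewer of the set passed in either direction than of all genes. The set summed to 5797 TPM in WT (0.580% of the library) and 5828 TPM in EV (0.583%). The 2-fold size was reached by 3.36% of all genes and by none of the set.

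The other footprint comparisons were as narrow. In MT over EV the median was 0.0059, against 0.013, with 29 of 56 above 0 (background 52.1%), 2 at 1.2-fold higher in MT (background 19.3%) and 4 lower (background 16.1%). In MT over WT the median was -0.0037, against -0.011, with 28 of 56 above 0 (background 48.4%), 7 at 1.2-fold higher in MT (background 20.5%) and 5 lower (background 20.4%). At 2-fold the backgrounds were 2.83% in MT over EV and 3.19% in MT over WT, and no gene of the set passed. WT was the highest of the 3 Ribo-seq libraries for 21 genes (background 38.4%) and the lowest for 25 (background 33.6%).

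**Figure D2:**
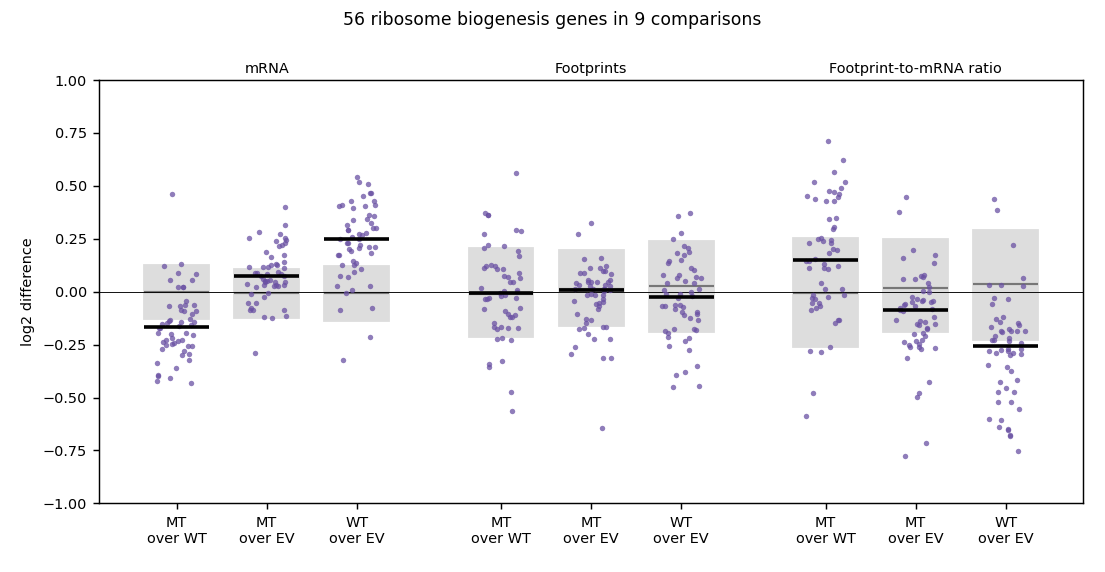
Log2 differences of the 56 genes (purple points) in mRNA, footprints and footprint-to-mRNA ratio, each for MT over WT, MT over EV and WT over EV. Thick black lines are the medians of the 56, grey boxes the quartiles of all genes tested and grey lines their medians. The median of the set lies above the grey box in mRNA of WT over EV (0.25), and below it in mRNA of MT over WT (-0.17) and in the ratio of WT over EV (-0.26).

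The footprint-to-mRNA difference, taken as the footprint difference minus the mRNA difference, was therefore lower in WT than in EV. It contains the mRNA difference with its sign turned, so it is the same observation on another scale and not a further measurement. Its median was -0.26 in WT over EV, against 0.035 over all genes, and 7 of 56 genes lay above 0 (background 53.7%). At 1.2-fold 28 were lower in WT (background 22.3%) and 2, NHP2 and EMG1, higher (background 27.2%). In MT over EV the median was -0.088, against 0.018, with 15 above 0 (background 52.0%), 8 lower by 1.2-fold (background 19.1%) and 2 higher (background 23.7%). In MT over WT it was 0.15, against -0.0081, with 38 above 0 (background 49.2%), 18 higher by 1.2-fold in MT (background 24.3%) and 4 lower (background 24.8%). At 2-fold the backgrounds were 4.21%, 3.51% and 4.82% for WT over EV, MT over EV and MT over WT, and no gene of the set passed.

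Gene by gene, 29 of 56 had mRNA above 0 with footprints below 0 in WT over EV (51.8%, against 23.5% of all genes), and 22 were above 0 in both (39.3%, against 26.1%). In MT over EV 21 had mRNA above 0 with footprints below 0 (37.5%, against 24.0%). In MT over WT 24 had mRNA below 0 with footprints above 0 (42.9%, against 26.3%). These pair counts follow largely from how many genes lay above 0 in each assay alone, so they restate the mRNA shift given above. They do not show opposite movement within genes. Across the 56 genes, which all come from the same 4 libraries, Pearson's r between the mRNA and the footprint difference of WT over EV was 0.085, and over all 10335 genes measured in both assays it was 0.014. The mRNA and footprint differences did not follow each other closely, inside or outside the set.

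**Figure D3:**
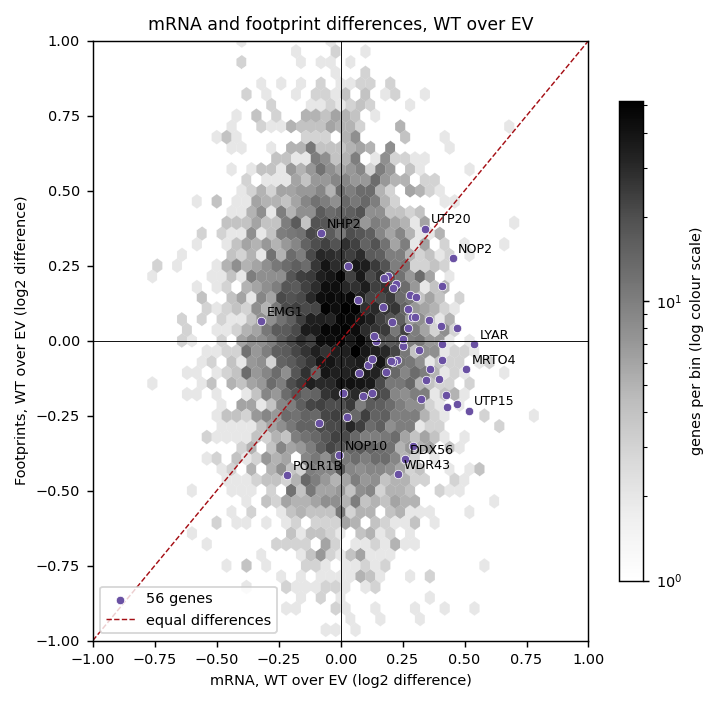
Footprint difference against mRNA difference in WT over EV, both as log2, for the 56 genes (purple) over the density of the 10022 of 10335 genes that fall within 1 log2 unit on both axes (grey, log colour scale). The points lie to the right of 0 for 51 of 56 genes (background 48.9%) and under the dashed line of equal differences for 49. Of all genes tested, 53.7% lie above that line.

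Nucleolar scaffold and multifunctional proteins had the highest mRNA median of the 7 roles in WT over EV, at 0.34, with all 5 above 0 and 4 past 1.2-fold. Over all genes the mRNA shares in WT over EV were 48.9% above 0 and 9.27% at 1.2-fold higher. For footprints 53.4% of all genes lay above 0. These shares are the background for the role counts below, which rest on few genes each. NPM1, the nucleolar chaperone nucleophosmin, had 1049 FPKM in MT, 1160.5 FPKM in WT and 1029.5 FPKM in EV. Its footprints were at 2161 TPM in MT, 2428 TPM in WT and 2246 TPM in EV. WT was the highest library in both assays, by small amounts (log2 of 0.17 and 0.11 over EV), and pseudogene copies of NPM1 may share its reads.

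Nucleolin (NCL), which binds the precursor RNA and ribosomal DNA chromatin, had 508 FPKM in MT, 594 FPKM in WT and 489.8 FPKM in EV, and footprints of 279 TPM in MT, 284 TPM in WT and 256 TPM in EV. Here footprints were also higher in WT than in EV, by 0.15 against 0.28 for mRNA. LYAR, a nucleolar protein of precursor processing, had the largest mRNA difference of the set in WT over EV (0.54). Its mRNA was 20.9 FPKM in MT, 28.4 FPKM in WT and 19.2 FPKM in EV, and its footprints were 37 TPM in MT, 30.2 TPM in WT and 30.4 TPM in EV. The WT and EV footprint values of LYAR were nearly the same, and MT was the high one.

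NOLC1, a chaperone of snoRNPs, had 71.3 FPKM in MT, 94.4 FPKM in WT and 74.2 FPKM in EV, and 40.3 TPM in MT, 37 TPM in WT and 40.6 TPM in EV for footprints. WT was thus the highest library in mRNA and the lowest in footprints. The RNA helicase DDX21, which acts in RNA polymerase I transcription and on snoRNAs, had 90.7 FPKM in MT, 112 FPKM in WT and 86.9 FPKM in EV, with footprints at 59.5 TPM in MT, 66.1 TPM in WT and 63 TPM in EV. Its mRNA difference in WT over EV was 0.36 and its footprint difference 0.068.

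RNA polymerase I genes had the lowest mRNA median of the 7 roles in WT over EV, at 0.053, with 2 of 4 above 0, as among the box H/ACA genes, and none past 1.2-fold. Their summed mRNA was 99.8 FPKM in WT and 92.8 FPKM in EV. POLR1B, a subunit of the catalytic core, had 13 FPKM in MT, 11.8 FPKM in WT and 13.9 FPKM in EV and footprints of 19.1 TPM in MT, 12.7 TPM in WT and 17.6 TPM in EV. WT was the lowest library in both assays, and its footprint difference from EV (-0.45) was the lowest of the set. POLR1A, the other core subunit, had 12.9 FPKM in MT, 15 FPKM in WT and 16 FPKM in EV and footprints of 15.2 TPM in MT, 11.6 TPM in WT and 14.3 TPM in EV. Its mRNA was lowest in MT and its footprints were lowest in WT.

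RRN3, the initiation factor that ties the polymerase to growth signals, had 18.8 FPKM in MT, 21.7 FPKM in WT and 18.1 FPKM in EV, and 5.82 TPM in MT, 5.59 TPM in WT and 5.68 TPM in EV for footprints. Its mRNA was highest in WT (0.25 over EV), and its footprints were level. RRN3 also has pseudogene copies in the genome, so its reads may be shared. UBTF, which binds ribosomal DNA promoters, had 54.6 FPKM in MT, 51.3 FPKM in WT and 44.8 FPKM in EV, and 13.6 TPM in MT, 15.4 TPM in WT and 13.1 TPM in EV for footprints. Both assays were lowest in EV, and mRNA was highest in MT (0.28 over EV).

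Box C/D snoRNPs carry out most methylation of ribosomal RNA. Their mRNA median in WT over EV was 0.24 with all 4 above 0, and the footprint median was -0.029 with 2 above 0. Fibrillarin (FBL), the methyltransferase, had 92.5 FPKM in MT, 96.7 FPKM in WT and 90.8 FPKM in EV, and 198 TPM in MT, 176 TPM in WT and 200.1 TPM in EV for footprints. Its mRNA hardly differed among the libraries, and its footprints were lowest in WT (-0.19 over EV).

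NOP56, one of the paired scaffold proteins, had 56.2 FPKM in MT, 70.7 FPKM in WT and 52.9 FPKM in EV, with footprints at 59.1 TPM in MT, 66.6 TPM in WT and 58.6 TPM in EV. WT was highest in both assays (0.41 in mRNA and 0.18 in footprints over EV). NOP58, its partner, had 55.5 FPKM in MT, 70.3 FPKM in WT and 59 FPKM in EV, and 37.7 TPM in MT, 44.4 TPM in WT and 44.2 TPM in EV for footprints. In NOP58 the MT library was lowest in both assays, and WT and EV footprints were nearly equal. RRP9, which binds the snoRNA of the small subunit processome, had 9.48 FPKM in MT, 10.7 FPKM in WT and 8.96 FPKM in EV, with footprints at 15.7 TPM in MT, 17.1 TPM in WT and 17.9 TPM in EV.

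Box H/ACA snoRNPs make pseudouridine and share their core proteins with telomerase. The 4 core genes did not move together. DKC1, the pseudouridine synthase dyskerin, had 50.7 FPKM in MT, 66.8 FPKM in WT and 53.5 FPKM in EV, and 117 TPM in MT, 107 TPM in WT and 109 TPM in EV for footprints. GAR1 had 8.75 FPKM in MT, 12.2 FPKM in WT and 8.92 FPKM in EV, with footprints at 54.6 TPM in MT, 52.9 TPM in WT and 53.3 TPM in EV. In both, mRNA was highest in WT (0.32 and 0.41 over EV), whereas the footprint differences of WT over EV were -0.030 and -0.012.

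NHP2 and NOP10, the small partner proteins, showed the opposite layout, with smaller differences in mRNA than in footprints. NHP2 had 127 FPKM in MT, 131 FPKM in WT and 138 FPKM in EV, and 217 TPM in MT, 222 TPM in WT and 173 TPM in EV for footprints, which were higher in MT and WT than in EV (0.32 and 0.36). NOP10 had 48.8 FPKM in MT, 44.7 FPKM in WT and 45 FPKM in EV, with footprints of 414 TPM in MT, 395 TPM in WT and 515 TPM in EV, lower in MT and WT than in EV (-0.31 and -0.38). The 2 partners of one complex thus differed from EV in opposite directions in footprints.

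The small subunit processome holds 18 genes of the set, and its mRNA median was 0.25 in WT over EV with 17 of 18 above 0. Its footprint median was 0.045 with 10 of 18 above 0, near the background of 53.4%. In MT over EV 17 of 18 mRNAs also lay above 0 (median 0.12, background 48.7%). Footprint values lay above 0 for 7 of 18 (median -0.038, background 52.1%). By median it had the highest mRNA of the 7 roles in MT over EV. UTP15, UTP4, WDR43, WDR75, HEATR1 and NOL11 belong to the subcomplex that joins the precursor while it is still being transcribed.

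UTP15 had 6.52 FPKM in MT, 8.08 FPKM in WT and 5.34 FPKM in EV, with footprints at 15.8 TPM in MT, 13.4 TPM in WT and 16 TPM in EV. Its ratio of footprints to mRNA differed most of the set in WT over EV (-0.75). UTP4, altered in a childhood cirrhosis, had 35.6 FPKM in MT, 42.3 FPKM in WT and 34.8 FPKM in EV, and 45 TPM in MT, 44.7 TPM in WT and 41.5 TPM in EV for footprints. WDR43 had 37.7 FPKM in MT, 37.1 FPKM in WT and 31.5 FPKM in EV, with footprints of 109 TPM in MT, 93.1 TPM in WT and 127 TPM in EV. For WDR43 mRNA was higher in MT and WT than in EV, and footprints were lower in both (-0.22 and -0.45).

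WDR75, HEATR1 and NOL11 were close to each other in mRNA. Their mRNA differences in WT over EV were 0.22, 0.21 and 0.21, and their footprint differences 0.19, 0.18 and -0.071. Members of this 1 subcomplex spanned footprint differences from -0.45 to 0.19, and their mRNA differences all lay above 0. Genes outside the set at 10 to 100 units had a robust SD of 0.30 in the same footprint comparison.

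MPHOSPH10, IMP3 and IMP4 form another subcomplex. MPHOSPH10 had 28.5 FPKM in MT, 28 FPKM in WT and 25.9 FPKM in EV, and 19.1 TPM in MT, 28.8 TPM in WT and 30.5 TPM in EV for footprints. Its MT footprint value was the low one, and its difference from EV (-0.64) was the lowest of the set. IMP4, the most abundant mRNA of the processome genes by mean, had 49.5 FPKM in MT, 52.9 FPKM in WT and 45.6 FPKM in EV, with footprints at 88.1 TPM in MT, 86.9 TPM in WT and 83.2 TPM in EV. IMP3 had 16 FPKM in MT, 15.1 FPKM in WT and 15 FPKM in EV, and 39.2 TPM in MT, 39.1 TPM in WT and 44.2 TPM in EV for footprints. The low MT value was not shared by IMP3 and IMP4.

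EMG1, a methyltransferase that modifies a pseudouridine of the small subunit RNA, was the only gene of the set with mRNA 1.2-fold lower in WT than in EV. It had 8.33 FPKM in MT, 5.78 FPKM in WT and 7.48 FPKM in EV, while its footprints were nearly level at 62.8 TPM in MT, 63.6 TPM in WT and 60.8 TPM in EV. NOP14, which binds EMG1, had 25.7 FPKM in MT, 31.5 FPKM in WT and 24.9 FPKM in EV, with footprints of 19.4 TPM in MT, 18.5 TPM in WT and 21.3 TPM in EV, so its mRNA was highest in WT. UTP20, a large scaffold protein, had 12.1 FPKM in MT, 15.1 FPKM in WT and 11.7 FPKM in EV and the lowest footprint values of the set, 2.2 TPM in MT, 3.02 TPM in WT and 2.1 TPM in EV. WT was the high library of UTP20 in both assays, though footprint values this low carry an unknown counting error.

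The remaining processome genes were UTP14A, UTP18, NOL6, DDX10, DDX52 and NAT10. NAT10, the acetyltransferase of ribosomal RNA cytidines, had 14.8 FPKM in MT, 17.5 FPKM in WT and 13 FPKM in EV, and 18.8 TPM in MT, 20.3 TPM in WT and 19.6 TPM in EV for footprints. UTP18 had 43.9 FPKM in MT, 43.1 FPKM in WT and 35.1 FPKM in EV, with footprints of 21.5 TPM in MT, 22 TPM in WT and 20.8 TPM in EV. The mRNA of NAT10 was highest in WT, and that of UTP18 was about equal in MT and WT. Among the helicases, DDX52 had 26.6 FPKM in MT, 27.8 FPKM in WT and 22.4 FPKM in EV, with footprints at 19.4 TPM in MT, 24.9 TPM in WT and 23.5 TPM in EV, lowest in MT, and DDX10 differed by at most 0.17 in any mRNA or footprint comparison. UTP14A (log2 of 0.36 in mRNA and -0.094 in footprints of WT over EV) has a near-identical copy, UTP14C, listed at 0 FPKM in all 3 RNA-seq libraries and with footprints of 0.520 TPM in MT, 1.03 TPM in WT and 0.863 TPM in EV. NOL6 differed by 0.27 in mRNA and 0.041 in footprints of WT over EV.

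Late maturation of the small subunit was represented by 6 genes, all with mRNA above 0 in WT over EV (median 0.24, background 48.9%). Footprints were above 0 in 2 of the 6 (median -0.12, background 53.4%). BYSL, a factor of nuclear small subunit precursors, had 11 FPKM in MT, 11.6 FPKM in WT and 8.08 FPKM in EV. Its footprints were 30.6 TPM in MT, 39.5 TPM in WT and 38.3 TPM in EV. In MT over EV its mRNA difference was the highest of the set (0.40) and its footprint difference the lowest after MPHOSPH10 (-0.31).

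NOB1, the endonuclease that makes the final cut of the small subunit RNA, had 24.5 FPKM in MT, 27.2 FPKM in WT and 26.7 FPKM in EV, and 80.4 TPM in MT, 75.5 TPM in WT and 90.3 TPM in EV for footprints, highest in EV. PNO1, its partner, had 14.5 FPKM in MT, 16.8 FPKM in WT and 12.2 FPKM in EV, with footprints of 75.1 TPM in MT, 62 TPM in WT and 70.5 TPM in EV. NOB1 mRNA hardly differed between WT and EV (0.025), whereas PNO1 mRNA was higher in WT (0.43). LTV1 had 25.3 FPKM in MT, 24.3 FPKM in WT and 23.8 FPKM in EV, and 37.9 TPM in MT, 40.5 TPM in WT and 33.9 TPM in EV for footprints, lowest in EV. TSR1 differed by 0.40 in mRNA and -0.13 in footprints of WT over EV, and RRP12 by 0.076 and -0.11.

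Assembly of the large subunit covers 15 genes, all with mRNA above 0 in WT over EV (median 0.26, background 48.9%). At 1.2-fold 7 were higher in WT (background 9.27%). In MT over WT 1 of 15 lay above 0 (median -0.17, background 49.0%). Footprints of WT over EV were above 0 in 5 of 15 (median -0.067, background 53.4%). PES1, BOP1 and WDR12 form a complex that processes the large subunit precursor. PES1 had 49.9 FPKM in MT, 59.3 FPKM in WT and 43.8 FPKM in EV, and 57.3 TPM in MT, 49.5 TPM in WT and 57.9 TPM in EV for footprints. BOP1 had 31.6 FPKM in MT, 34.8 FPKM in WT and 26 FPKM in EV, with footprints of 54.9 TPM in MT, 51 TPM in WT and 53.4 TPM in EV. WDR12 had 7.51 FPKM in MT, 8.16 FPKM in WT and 7.39 FPKM in EV, and 21.8 TPM in MT, 23.8 TPM in WT and 27 TPM in EV for footprints. The 3 partners shared the order WT, MT and EV from high to low in mRNA, and footprints were lower in WT than in EV for all 3.

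MRTO4, which in yeast holds the place of the stalk protein on the precursor, had 26.6 FPKM in MT, 32 FPKM in WT and 22.2 FPKM in EV, with footprints at 155 TPM in MT, 136 TPM in WT and 145 TPM in EV. Its mRNA difference in WT over EV (0.51) was the highest of the large subunit genes. RRS1 had 27 FPKM in MT, 32.3 FPKM in WT and 23.1 FPKM in EV, and 77.4 TPM in MT, 59.6 TPM in WT and 69.2 TPM in EV for footprints. For RRS1 mRNA was highest and footprints lowest in WT. DDX56, an RNA helicase, had 45.8 FPKM in MT, 51.7 FPKM in WT and 43 FPKM in EV, with footprints of 109 TPM in MT, 89.1 TPM in WT and 118 TPM in EV, also lowest in WT (-0.40 over EV).

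NOP2, a methyltransferase of the large subunit RNA, went the other way. It had 19.9 FPKM in MT, 26.7 FPKM in WT and 19.3 FPKM in EV, and 12.6 TPM in MT, 18 TPM in WT and 14.7 TPM in EV for footprints, so WT was high in both assays. EBNA1BP2, the most abundant of the large subunit genes in footprints, had 64 FPKM in MT, 75.6 FPKM in WT and 66.5 FPKM in EV, with footprints at 209 TPM in MT, 193 TPM in WT and 208 TPM in EV. NOP16 had 26.5 FPKM in MT, 27.8 FPKM in WT and 22.6 FPKM in EV, and 130.4 TPM in MT, 101 TPM in WT and 129 TPM in EV for footprints, again lowest in WT. PPAN had the smallest mRNA difference of the role in WT over EV (13.6 FPKM in MT, 13.1 FPKM in WT and 12.4 FPKM in EV, with footprints at 14.3 TPM in MT, 15.2 TPM in WT and 13.7 TPM in EV), and it shares reads with the readthrough gene PPAN-P2RY11, which stood at 1.58 FPKM or less.

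The GTPases GNL2, GNL3 (nucleostemin) and GTPBP4 and the factors DDX18 and NIP7 make up the rest. Their mRNA differences in WT over EV ran from 0.13 for GNL2 to 0.30 for GTPBP4. Their footprint differences ran from -0.067 for NIP7 to 0.21 for DDX18. GNL3 footprints were level at 63 TPM in MT, 63 TPM in WT and 62.4 TPM in EV, with mRNA at 61.9 FPKM in MT, 74.1 FPKM in WT and 67.4 FPKM in EV.

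**Figure D4:**
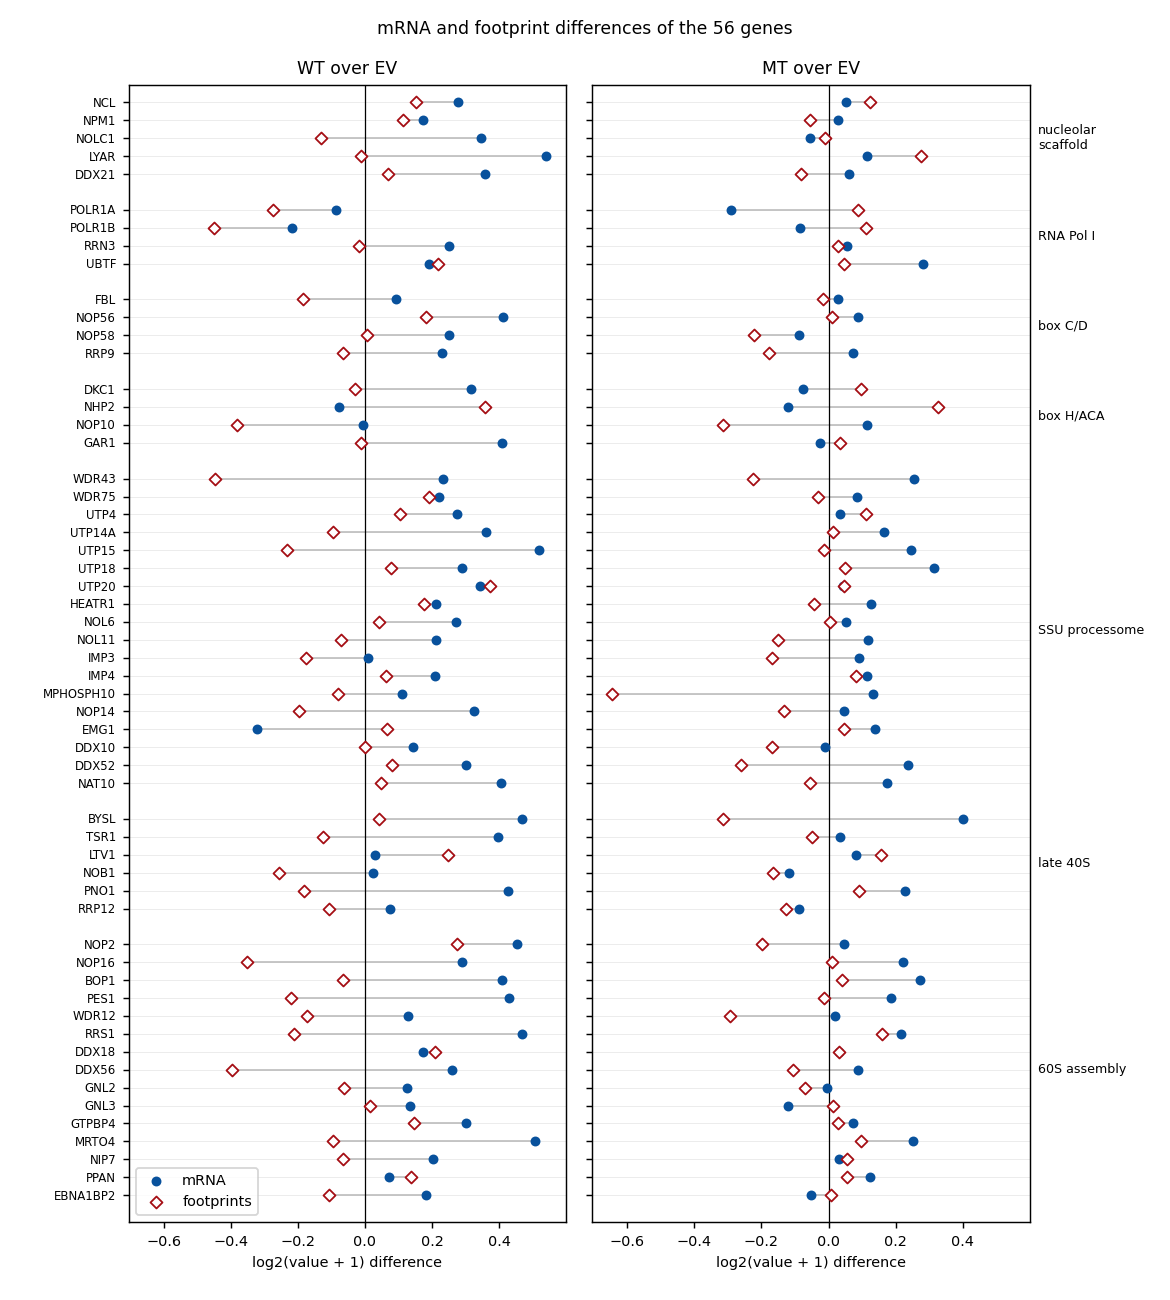
Log2(value + 1) differences of each gene in mRNA (filled circles) and footprints (open diamonds), WT over EV on the left and MT over EV on the right, with genes grouped by role. Both panels use the same EV libraries. In the left panel the circle lies to the right of the diamond for 49 of 56 genes and in the right panel for 41. Over all genes tested, the footprint difference exceeded the mRNA difference in 53.7% (WT over EV) and 52.0% (MT over EV).

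The ratio of Ribo-seq TPM to RNA-seq FPKM sets the footprints of a gene against its mRNA level within the same label. Its scale is arbitrary because the units differ. The median ratio of the set was 1.27 in MT, 1.07 in WT and 1.27 in EV, against 1.11 in MT, 1.13 in WT and 1.1 in EV over all genes at 1 unit or more in both assays of the same label. So 32 of 56 genes in MT, 27 in WT and 34 in EV stood above the median of all genes. The spread among members was wide. UTP20 had the lowest ratio in each label (0.182 in MT, 0.200 in WT and 0.179 in EV), and NOP10 (8.5 in MT, 8.84 in WT and 11.5 in EV), EMG1 (7.54 in MT, 11 in WT and 8.13 in EV) and NIP7 (7.82 in MT, 6.33 in WT and 7.69 in EV) had the highest.

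Roles also differed in this ratio. In each label all 4 box H/ACA genes stood above the median of all genes, with role medians of 4.27 in MT, 3.03 in WT and 4.01 in EV. Of the 4 RNA polymerase I genes, 2 stood above it in MT, 0 in WT and 1 in EV, with role medians of 0.745 in MT, 0.537 in WT and 0.603 in EV. The large subunit genes had medians of 1.77 in MT, 1.64 in WT and 2.06 in EV, and the processome genes 0.764 in MT, 0.869 in WT and 0.993 in EV. Whether fragments were assigned to coding sequence alone or to whole transcripts is not stated. Differences in this ratio between genes or roles therefore cannot be read as differences in footprint density alone.

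**Figure D5:**
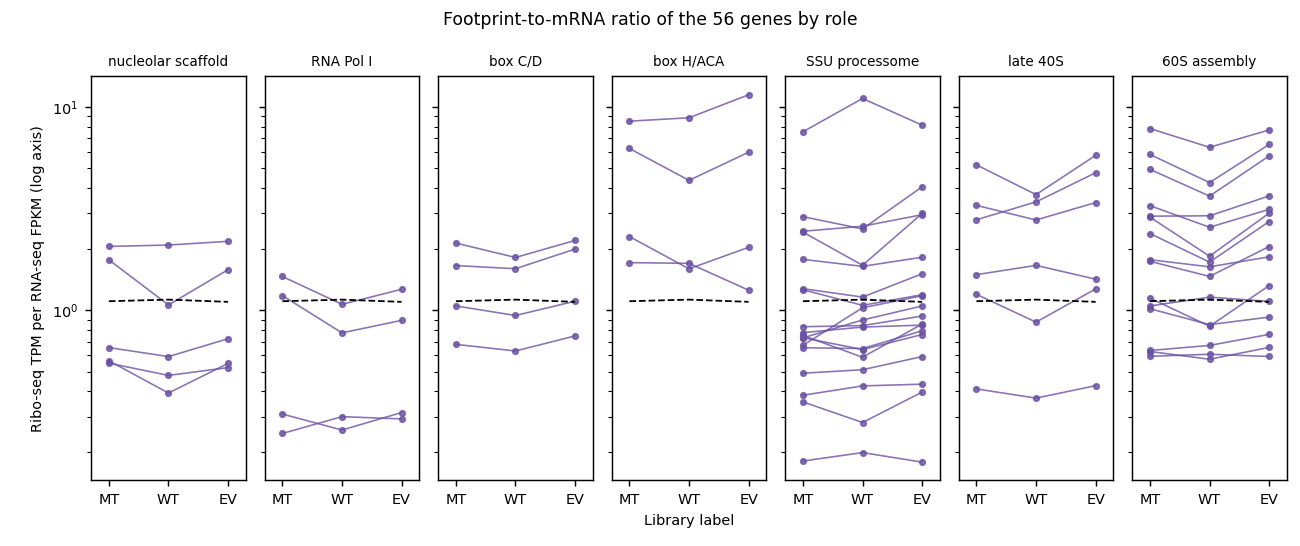
Ratio of Ribo-seq TPM to RNA-seq FPKM in the MT, WT and EV libraries for each gene (1 line per gene, log axis), with a panel for each role and the median of all genes as a dashed line. The 4 box H/ACA genes lie above the dashed line in every label, and UTP20, near 0.2, is the lowest line.

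Genes of the same pathway outside the set were taken from a list of 120, also chosen with earlier results of these data known. Their mRNA median in WT over EV was 0.16, with 95 of 120 above 0 (79.2%, against 48.9% of all genes). At 1.2-fold 31 were higher in WT (25.8%, against 9.27%) and 1 was lower (0.833%, against 11.8%). In MT over EV 75 of 120 were above 0 (62.5%, against 48.7%), 8 higher by 1.2-fold (6.67%, against 7.63%) and 4 lower (3.33%, against 9.8%). In MT over WT 31 were above 0 (25.8%, against 49.0%), 1 higher (0.833%, against 10.6%) and 20 lower (16.7%, against 9.97%). For footprints of WT over EV the median was 0.075, with 30 higher and 16 lower in WT (backgrounds 22.7% and 19.5%). By their mRNA median in WT over EV, processome and small subunit genes stood at 0.19, large subunit and export genes at 0.18, RNA polymerase I genes at 0.16, snoRNP assembly genes at 0.088 and the exonucleases that trim ribosomal RNA at 0.064.

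Of these 120 genes, 6 passed 2-fold in some comparison. In mRNA 1 gene of 120 (0.833%) did so in WT over EV and 1 in MT over EV, against 0.499% and 0.29% of all genes, and 0 in MT over WT, against 0.508%. In footprints it was 2 (1.67%, against 3.36%) in WT over EV, 1 (0.833%, against 2.83%) in MT over EV and 3 (2.5%, against 3.19%) in MT over WT, all below the background. In the ratio it was 2 in each comparison (1.67%), against 4.21% in WT over EV, 3.51% in MT over EV and 4.82% in MT over WT. TAF1B, a subunit of the RNA polymerase I promoter factor, had 9.92 FPKM in MT, 10.8 FPKM in WT and 22.8 FPKM in EV, with footprints at 11.4 TPM in MT, 12.6 TPM in WT and 9.48 TPM in EV, so its mRNA was lower in MT and WT than in EV while its footprints were not. PDCD11, a processome scaffold, had footprints of 2.04 TPM in MT, 6.35 TPM in WT and 1.73 TPM in EV. ERI1, an exonuclease of ribosomal RNA, had 53.4 TPM in MT, 118 TPM in WT and 62.5 TPM in EV, and the kinase RIOK2 had 2.46 TPM in MT, 5.99 TPM in WT and 3.74 TPM in EV. For these 3 the WT library was the high one. EFL1, a GTPase of the last large subunit steps, had 7.94 TPM in MT, 6.1 TPM in WT and 3.4 TPM in EV, and NOL12 had 21.9 TPM in MT, 26.6 TPM in WT and 11.6 TPM in EV, with EV the low library in both. The values of PDCD11, RIOK2 and EFL1 are a few TPM, and their counting error is unknown.

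Genes with and without the E-box overlapped in their mRNA differences. In WT over EV the 24 genes with CACGTG had a median of 0.31 (23 above 0) and the 24 without it a median of 0.21 (20 above 0), with ranges from -0.0073 to 0.54 and from -0.32 to 0.52. In MT over WT the medians were -0.23 with the motif and -0.14 without it. Over all genes with a promoter in the table, the medians of WT over EV were 0.016 with the motif (1179 genes) and -0.0072 without it (7949 genes). NAT10, UTP4, UTP18 and UTP20, printed above, had mRNA differences of 0.41, 0.27, 0.29 and 0.34 in WT over EV, and NOP10, with the motif 11 bases before its start, had -0.0073. UTP14A, IMP4 and EBNA1BP2 also carry the motif ahead of their outermost start but were not printed. Their mRNA differences in WT over EV were 0.36, 0.21 and 0.18.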

How the data were processed

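The deposited table held 20307 rows and 6 columns, 1 per library. RNA-seq columns were read as FPKM, since the deposited values carry no unit and sum to between 459938 and 469859, and Ribo-seq columns as TPM, since each deposited column sums to 1000000. Per the labels' protocols, cells for Ribo-seq received cycloheximide (100 µg/ml), RNase I digestion gave the footprints, and antisense DNA probes depleted ribosomal RNA. Cycloheximide is known to move ribosome positions within transcripts. The submitters' processing notes name hg18. Aligner, counting method and annotation were not given in the sources used here. Rows without a gene name (605, 0.153% to 0.564% of column sums) and 7 symbols on several rows were left out, leaving 19669 genes. Values were compared as log2(value + 1) in Python 3.11.15 with pandas 2.3.3, and the calculation was tested on simulated data with known differences. Columns were matched to labels by name.

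The 56 genes, their roles and the 120 other pathway genes were chosen with earlier results of these data known. Genes given with all values are, per role, the most abundant mRNA and the highest and lowest differences in mRNA of WT over EV and in footprints of WT over EV and MT over EV, all other pathway genes past 2-fold, and some added after their values were seen. Alternatives were another pseudocount (0.1), a minimum of 10 units, no minimum, centring on all genes, leaving out mitochondrially encoded mRNAs, and exchanging MT and WT in Ribo-seq. Protein sequences were not used here.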

Additional observations from a re-analysis of the deposited data

How the results depend on the processing

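Under the 6 alternatives none of the 9 medians moved by 0.05 or more on the log2 scale, a limit set by hand. Removing the minimum could not move them, since every gene of the set already met it. The exchange of MT and WT in Ribo-seq was not applied to the mRNA medians. For footprints it only swaps the medians of WT over EV and MT over EV and turns the sign of MT over WT. Its footprint values thus follow from the main ones. In WT over EV the mRNA median lay between 0.25 and 0.26 and the footprint-to-mRNA median between -0.29 and -0.26. The footprint medians were near 0 and took either sign: in MT over EV they ran from -0.024 to 0.021, in MT over WT from -0.0038 to 0.012 and in WT over EV from -0.051 to 0.0059.

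Counts of genes past 1.2-fold changed by over 1.5 times in 5 cases, all small counts. With a minimum of 10 units, which keeps 53 genes in mRNA, the count lower in WT than in EV and the count higher in MT than in WT were both 0 in place of 1, since EMG1 drops out, and 1 in place of 2 stood higher in footprint-to-mRNA ratio in WT over EV (48 genes). Centring on all genes left 1 gene in place of 2 with higher footprints in MT over EV. With MT and WT exchanged in Ribo-seq, 13 genes in place of 8 had a lower ratio in MT over EV. The other 148 of the 153 values compared stayed within 1.5 times for counts and 0.05 for medians. They include the 27 values with no minimum, which were bound to equal the main ones because every gene of the set met the minimum. Footprint values under the exchange likewise restate the main ones. The number of unchanged values is therefore not a measure of stability.

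No paired analysis was possible because each label has 1 library per assay, and leaving out a library would end its comparisons. Depth is unknown, so values of a few units, such as UTP20 footprints, cannot be given an error.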
